A study of Mus musculus with 8 samples.

Results

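CD44hi CD4 T cells were compared with CD44lo CD4 T cells, which together made up 4 of the 8 arrays of the series, 2 for each population. The members were all 4 samples whose labels name either population, and no measured value was used to choose them. Each population had been sorted as CD4+ T cells from spleen and lymph nodes, pooled, of C57BL/6 males aged 15 weeks. By the series title the mice carried Ox40-cre and ROSA-YFP, an allele pair in which Cre is made where the costimulatory receptor Ox40 (Tnfrsf4) is expressed and YFP then marks those cells and their progeny. The other 4 arrays held naive and Treg (regulatory T) cells from mice with the same labels. Beyond the population names, the labels state neither the gates nor the YFP status, and they do not say if the samples numbered 1 and 2 are separate animals. The p-values therefore rest on a spread between samples that could be technical.

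CD44 is an adhesion receptor for hyaluronan that T cells raise after antigen encounter and keep as memory cells. Naive CD4 T cells recirculate through lymph nodes with the help of homing receptors such as Ccr7 and depend on transcription factors such as Lef1, Bach2 and Satb1. Memory and effector cells lose part of that set and gain chemokine receptors for inflamed tissue, helper cytokines and calcium-binding S100 and annexin proteins. The comparison asks which of these genes differed between the CD44hi and the CD44lo cells.

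Levels are given as the log2 signal of a gene's probe relative to its array's 75th percentile, so that 0 is the 75th percentile. Differences are log2 CD44hi minus CD44lo, and the value after ± is the standard error of the limma fit with 2 arrays in each population. The 41174 probes exceeded background clearly in 64.4% to 68.8% of cases on the 4 arrays. The SD across genes of the log2 difference between arrays of the same population was 0.48 for CD44hi and 0.37 for CD44lo. Slide 1 held CD44hi array 1 and CD44lo array 2, and slide 2 held CD44hi array 2 and CD44lo array 1. A difference within a slide therefore sets arrays of different number against each other. The slide was the only batch that could be read from the files. In bulk samples such as these, more cells of a type and more RNA per cell cannot be told apart.

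Of 18010 genes tested, 1689 (9.38%) differed at an adjusted p under 0.05. They were 1062 genes higher in CD44hi (5.9%) and 627 lower in CD44hi (3.48%). The higher genes also moved further. Among the higher genes 528 differed by more than 4-fold and 289 by more than 8-fold, against 101 and 17 of the lower genes. The median difference of all tested genes was -0.07. None of the 1689 genes had overlapping CD44hi and CD44lo arrays. The same sign on both slides follows from this and is not a separate result. Arrays of the populations did not overlap for 68.5% of all tested genes (28.8% higher, 39.6% lower in CD44hi), so that a lack of overlap by itself is common here. With the slide as a block in the fit, 1408 genes were called, 1345 of them among the 1689. The number of calls depended on each of the 4 arrays, with 1090 genes without CD44hi array 1, 790 without CD44hi array 2, 516 without CD44lo array 1 and 848 without CD44lo array 2. It rose to 2944 (1501 higher and 1443 lower) when the naive arrays, which differed most from each other, were left out of the shared estimate of the spread.

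**Figure D1:**
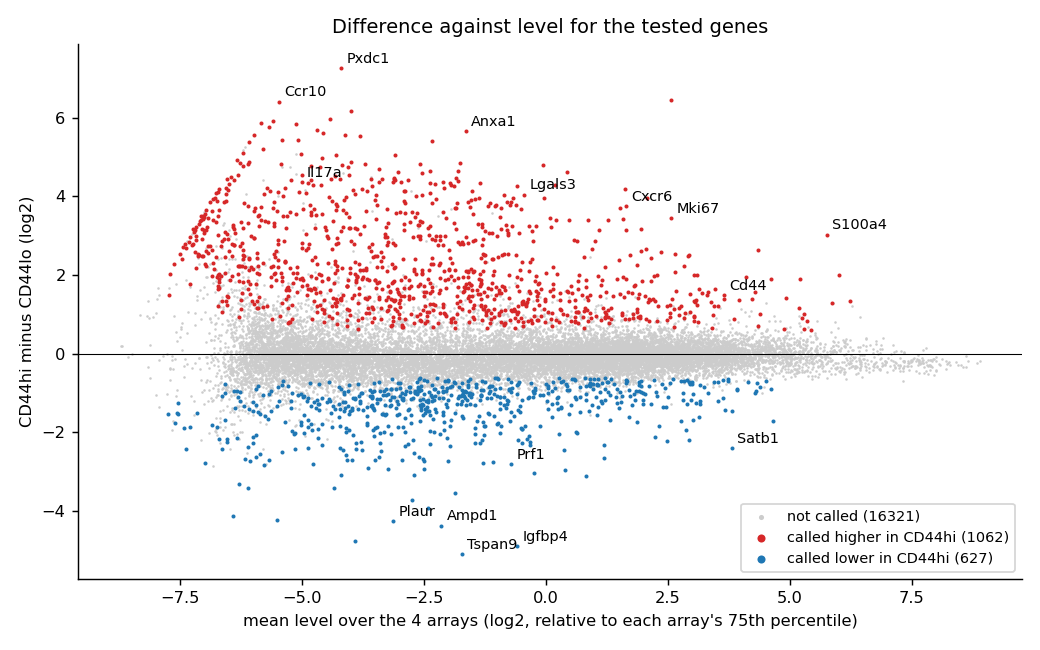
Log2 difference between CD44hi and CD44lo (vertical axis) against the mean level over the 4 arrays (horizontal axis, log2 relative to each array's 75th percentile) for the 18010 tested genes, 1 point each. The 1062 genes called higher reach larger differences than the 627 called lower, and Cd44 and Satb1 lie on opposite sides.

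The sorted populations were first set against their names. Cd44 itself stood at log2 levels of 4.46 and 4.33 on the CD44hi arrays and 2.80 and 3.02 on the CD44lo arrays. It was higher by 1.48 ± 0.19 in CD44hi (adjusted p = 0.0058, and 0.054 without CD44lo array 1), a 2.8-fold difference, while the naive and Treg means were 2.31 and 3.42. The T cell genes Cd3e (-0.05 ± 0.16, adjusted p = 0.88) and Cd4 (0.05 ± 0.50, adjusted p = 0.97) were well above background on all 4 arrays and were not called. Tnfrsf4, the gene of Ox40 itself, was at 3.09 and 3.34 in CD44hi and at 2.70 and 3.28 in CD44lo, so that the arrays overlapped in part of their range, and it was not called (0.23 ± 0.30, adjusted p = 0.72). Its naive and Treg means were 1.06 and 4.54.

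The effector and memory genes were the first of 29 lists compared. Of 30 members tested, 19 were higher in CD44hi and 0 lower (63.3% called, against 9.38% of all tested genes). All 30 had differences above 0, with a median of 1.50 against -0.07 for all tested genes. The chemokine receptors for inflamed tissue led the list. Cxcr6, which binds Cxcl16, stood at 3.19 and 3.83 on the CD44hi arrays against -0.45 and -0.03 on the CD44lo arrays. The groups were far apart relative to the gap between arrays, and the difference was 3.75 ± 0.37 (adjusted p = 0.0030). Ccr2, the receptor that draws cells along Ccl2, was at 0.68 and 0.78 against -2.37 and -2.19, a difference of 3.01 ± 0.14 (adjusted p = 0.0007). Il18rap, a chain of the interleukin-18 receptor, was at -0.09 and -0.24 against -3.12 and -3.13 (2.96 ± 0.18, adjusted p = 0.0010). Itgb1, the beta chain of the VLA integrins, was higher by 2.58 ± 0.21 and the inhibitor of DNA binding Id2 by 1.65 ± 0.14. These 5 genes stayed called with any 1 of the 4 arrays left out.

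Other members of the list were closer to the spread. Eomes, the T-box factor of cytotoxic memory cells, differed by 0.24 ± 0.18 (adjusted p = 0.47), Prdm1, which encodes Blimp-1, by 0.29 ± 0.15 (adjusted p = 0.32), and the integrin chain Itga4 by 0.16 ± 0.30 (adjusted p = 0.80). Ccl5, a chemokine of memory cells, was at 5.45 and 4.85 against 3.99 and 3.72 and was not called (1.29 ± 0.43, adjusted p = 0.13). Klrg1, a receptor of late effector cells, was at 0.93 and 0.87 against -0.42 and -0.50 and was not called either (1.36 ± 0.41, adjusted p = 0.10). The number of called members was 13, 12, 10 and 15 without CD44hi array 1, CD44hi array 2, CD44lo array 1 and CD44lo array 2, and 10 members were called in all 4 of those fits.

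The S100, annexin, galectin and cytoskeletal genes often found in memory cells moved with this list. Of 19 tested, 11 were higher in CD44hi and 0 were lower (57.9% called, against 9.38% of all tested genes). No overlap between the arrays was seen for any member, nor for 68.5% of all tested genes. Anxa1, which encodes the phospholipid-binding annexin A1, had the largest difference among called genes with a current symbol that were well above background on all 4 arrays. Its levels were 0.98 and 1.39 in CD44hi, -4.64 and -4.31 in CD44lo, with means of -5.46 in naive and -0.72 in Treg. The difference was 5.66 ± 0.30 (adjusted p = 0.00072), a 50.5-fold change. Lgals3, the gene of galectin-3, was at 1.40 and 1.73 against -2.68 and -2.26 (4.04 ± 0.23, adjusted p = 0.00075). S100a4 was at 7.05 and 7.49 against 3.98 and 4.53 (3.02 ± 0.53, adjusted p = 0.018). S100a6 (2.63 ± 0.31), Anxa2 (2.65 ± 0.42), Lgals1 (1.90 ± 0.28) and the giant scaffold gene Ahnak (1.58 ± 0.21) were also higher. Anxa5, Emp3 and Anxa6 differed by 0.27 to 0.41 and were not called. Anxa1, Lgals3 and S100a6 stayed called with any 1 array left out. S100a4 had adjusted p-values of 0.046, 0.085, 0.11 and 0.052 without CD44hi array 1, CD44hi array 2, CD44lo array 1 and CD44lo array 2, and the list then held 9, 7, 5 and 9 called members.

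The naive and quiescence genes went the other way. Of 24 tested, 13 were lower in CD44hi and 0 higher (54.2% called, against 9.38% of all tested genes), with a median of -0.93. In 21 of them both CD44hi arrays lay below the CD44lo arrays, as in 39.6% of all tested genes. Igfbp4, which binds insulin-like growth factors, was at -3.16 and -2.93 in CD44hi against 1.79 and 1.91 in CD44lo, with means of 2.56 in naive and -0.78 in Treg. The difference was -4.90 ± 0.25 (adjusted p = 0.00072), a 29.8-fold change. Satb1, a chromatin organizer of T cells, was at 2.52 and 2.69 against 5.16 and 4.84 (-2.40 ± 0.19, adjusted p = 0.0016). Dntt, the terminal transferase that adds nucleotides to rearranging receptor genes, was at -2.43 and -2.54 against -0.13 and -0.30 (-2.27 ± 0.27, adjusted p = 0.0046). Bach2, a repressor of effector genes, was at 1.58 and 1.16 against 3.70 and 3.49 (-2.23 ± 0.20, adjusted p = 0.0025). All 4 stayed called with any 1 array left out.

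Lef1 (-1.72 ± 0.26), the lymph node homing receptor Ccr7 (-1.45 ± 0.21), the Tec family kinase Txk (-1.28 ± 0.15) and Foxo1 (-0.75 ± 0.15), which drives Ccr7 transcription, were lower as well. The naive set did not move as a block. Klf2, a factor of T cell quiescence and egress, was at 6.91 and 6.68 in CD44hi and 6.80 and 6.80 in CD44lo, and its difference was -0.01 ± 0.21 (adjusted p = 0.99). Tcf7, which encodes the Lef1 relative TCF1, differed by -0.26 ± 0.15 (adjusted p = 0.36), the survival receptor gene Il7r by -0.13 ± 0.23 (adjusted p = 0.79) and the egress receptor S1pr1 by -0.53 ± 0.18 (adjusted p = 0.15). The list held 11, 6, 5 and 8 called members without CD44hi array 1, CD44hi array 2, CD44lo array 1 and CD44lo array 2. Ccr7 and Lef1 were among those lost, with adjusted p-values of 0.061 and 0.057 without CD44hi array 2 and 0.080 each without CD44lo array 1, and Ccr7 had 0.051 without CD44lo array 2.

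**Figure D2:**
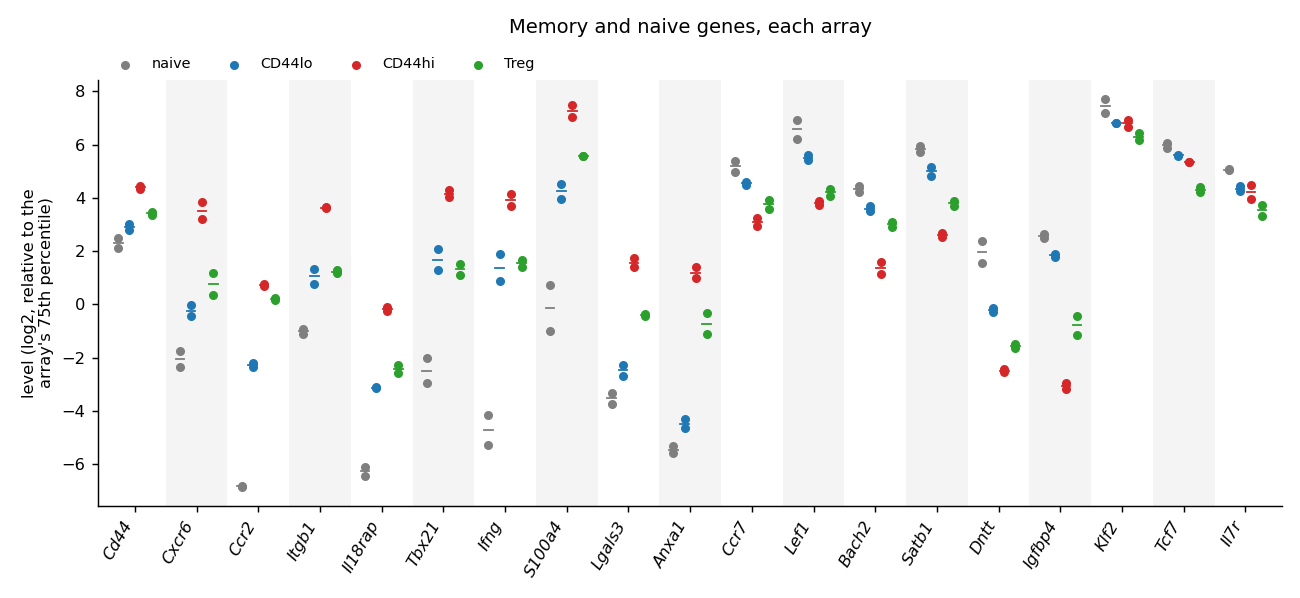
Log2 level relative to the array's 75th percentile (vertical axis) for 19 memory and naive genes on all 8 arrays, 1 point per array and a bar at each group's mean of 2 arrays. From Cd44 to Anxa1 the CD44hi points lie above the CD44lo points and from Ccr7 to Igfbp4 below them, while those of Klf2 and Il7r overlap and Tcf7 differs by -0.26.

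Helper programmes were described by lists for types 1, 2 and 17 and for follicular helper cells. Type 17 helper cells secrete interleukin-17. In that list 12 of the 18 tested genes were higher in CD44hi and 0 lower, with a median of 2.21. The share called was 66.7%, against 9.38% of all tested genes. Il17a was well above background on both CD44hi arrays (-3.40 and -2.26) and on neither CD44lo array, and was an estimated 20.6-fold higher in CD44hi (adjusted p = 0.0033). An estimate of this kind sets the CD44hi mean against the lowest signal that counted as well above background on the CD44lo arrays, or the probe's own signal if higher. It is not a lower limit, since a probe above that lowest signal can still fail to count. Cd8a, at -6.54 and -6.52 on the CD44lo arrays, was not well above background on either. Il22 was at -2.56 and -0.98 against -5.02 and -5.39 (3.43 ± 0.57, adjusted p = 0.014), and Il17f was at -3.04 and -1.61 against -4.65 and -4.90 (2.45 ± 0.51, adjusted p = 0.033). Ccr6, the homing receptor of these cells, was at 2.98 and 3.75 against 0.91 and 0.96 (2.43 ± 0.30, adjusted p = 0.0054). Among the largest rises outside the list was Il17re, a receptor chain for interleukin-17C, at 0.15 and 1.16 against -4.15 and -4.23 (4.85 ± 0.49, adjusted p = 0.0031).

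For these genes the arrays of CD44hi differed from each other, with array 2 above array 1 for 15 of the 18 members and by a median of 0.76. The median difference was 1.57 on slide 1, which held CD44hi array 1, and 2.86 on slide 2, which held CD44hi array 2. Il23r, the receptor that sustains type 17 cells, was well above background on 1 of the 2 CD44lo arrays and was not called (3.31 ± 1.14, adjusted p = 0.14), nor was Stat3 (-0.40 ± 0.22, adjusted p = 0.35). The list held 11, 8, 6 and 6 called members without CD44hi array 1, CD44hi array 2, CD44lo array 1 and CD44lo array 2. Il17a and Ccr6 were called in each of these fits. Il22 had adjusted p-values of 0.067 and 0.070 without CD44lo array 1 and CD44lo array 2, and Il17f had 0.10, 0.14 and 0.13 without CD44hi array 2, CD44lo array 1 and CD44lo array 2. Markers that gamma-delta T cells of the interleukin-17 kind also carry moved with this list. Cd163l1, a scavenger receptor family gene, was at 0.05 and 1.55 against -3.46 and -3.60 (4.33 ± 0.51, adjusted p = 0.0046), and 5830411N06Rik, of the same family, at 0.71 and 0.86 against -2.73 and -2.64 (3.47 ± 0.35, adjusted p = 0.0031). Of the 10 gamma-delta and invariant T cell markers 6 were on the array and 4 tested, with 3 higher, and their linear signals summed to 4.15 and 6.51 times the 75th percentile in CD44hi and to 0.797 and 0.811 in CD44lo. Their part in the type 17 differences was not tested.

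Of 19 type 1 helper genes, 10 were higher in CD44hi and 1 lower (57.9% called, against 9.38% of all tested genes). Tbx21, which encodes the type 1 master factor T-bet, was at 4.28 and 4.04 against 1.27 and 2.07 (2.49 ± 0.38, adjusted p = 0.011), and Ifng was at 3.69 and 4.16 against 0.87 and 1.89 (2.54 ± 0.46, adjusted p = 0.020). For both genes CD44lo array 2 lay above CD44lo array 1, and both CD44lo arrays lay below both CD44hi arrays. The lower gene was Ifngr2, a chain of the interferon gamma receptor, at 0.00 and 0.04 against 2.47 and 2.22 (-2.32 ± 0.20, adjusted p = 0.0022). Stat4 (0.35 ± 0.15, adjusted p = 0.23) and Runx3 (0.26 ± 0.18, adjusted p = 0.45) were not called. The list held 6, 3, 2 and 7 genes called higher without CD44hi array 1, CD44hi array 2, CD44lo array 1 and CD44lo array 2. Tbx21 had an adjusted p of 0.068 without CD44lo array 1, and Ifng had 0.098 without CD44hi array 2 and 0.11 without CD44lo array 1.

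Of 15 type 2 genes tested, 4 were higher and 1 lower (33.3% called, against 9.38% of all tested genes). The receptor genes Il17rb (2.21 ± 0.19, adjusted p = 0.0023), Il1rl1, which encodes the interleukin-33 receptor ST2 (2.10 ± 0.21, adjusted p = 0.0032), Ccr4 (1.77 ± 0.19, adjusted p = 0.0033) and Ccr3 (1.17 ± 0.18, adjusted p = 0.012) were higher in CD44hi. Il4ra, the receptor chain for interleukin-4, was at 2.97 and 2.92 against 4.40 and 4.35, and was lower (-1.43 ± 0.15, adjusted p = 0.0033). Apart from Ccr3, which had adjusted p-values of 0.074, 0.079 and 0.083 without CD44hi array 2, CD44lo array 1 and CD44lo array 2, each of these stayed called with any 1 array left out. The master factor Gata3 was at 3.72 and 3.89 against 3.18 and 3.18 and was not called (0.63 ± 0.22, adjusted p = 0.15). Il4 was at -0.52 and 1.00 against -1.50 and -0.52 (1.25 ± 0.55, adjusted p = 0.23) and Il13 differed by 0.04 ± 0.20 (adjusted p = 0.93). The chemokine receptor gene Ccr8 differed by 0.25 ± 0.31 (adjusted p = 0.70).

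Of the follicular helper genes, which mark the CD4 cells that help B cells in germinal centres, 11.1% were called, against 9.38% of all tested genes. Slamf6 (0.70 ± 0.14, adjusted p = 0.028) and Cd200 (1.00 ± 0.15, adjusted p = 0.0095) were the 2 called of 18, both higher, and neither was called without CD44hi array 1, where Slamf6 had an adjusted p of 0.091 and Cd200 of 0.051. The list held 0, 0, 0 and 2 called genes without CD44hi array 1, CD44hi array 2, CD44lo array 1 and CD44lo array 2. All 18 differences were above 0, with a median of 0.71. Cxcr5, the receptor that leads cells to B cell follicles, was at 4.50 and 4.92 against 3.62 and 4.36 (0.72 ± 0.29, adjusted p = 0.20). Bcl6, the lineage factor, was at 3.15 and 3.89 against 2.71 and 3.35, where the arrays of the 2 populations overlapped (0.48 ± 0.39, adjusted p = 0.53). Pdcd1, which encodes PD-1, was at 3.90 and 4.47 against 2.92 and 3.72 (0.86 ± 0.33, adjusted p = 0.18), and Icos differed by 0.96 ± 0.31 (adjusted p = 0.12). The naive means of Cxcr5 and Pdcd1 were -0.41 and -0.29, below both populations. Called higher were 5 members with the authors' table and 4 with normexp background, and a missing call does not show that the populations were alike.

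**Figure D3:**
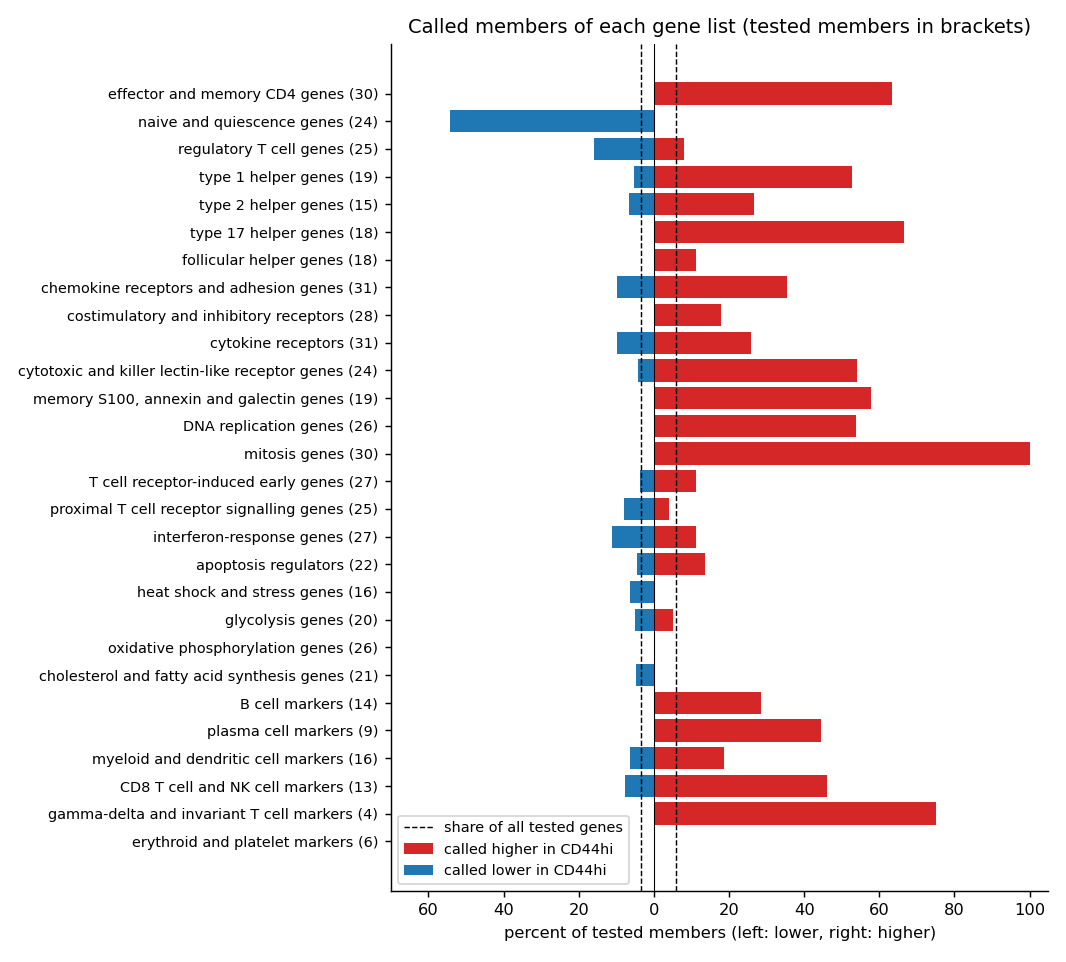
Percent of the tested members of 28 gene lists that were called higher (bars to the right) or lower (bars to the left) in CD44hi, with the number tested in brackets and dashed lines at the shares of all tested genes, 5.9% and 3.48%. Mitosis genes stand at 30 of 30 higher and naive genes at 13 of 24 lower, while oxidative phosphorylation genes have no call.

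Regulatory T cell genes were called in both directions. Of 25 tested, 2 were higher and 4 lower in CD44hi (24.0% called, against 9.38% of all tested genes), with a median of 0.00. That balance depended on the processing, with 7 higher and 2 lower with normexp background, 8 and 4 with the authors' table and 7 and 4 without the naive arrays. Gpr83, a peptide receptor gene typical of regulatory T cells, was at 1.25 and 1.10 against 3.32 and 3.26, with a Treg mean of 5.40 (-2.11 ± 0.16, adjusted p = 0.0015). Cyp26b1, which degrades retinoic acid, was well above background on both CD44lo arrays and on neither CD44hi array, and was an estimated 5.12-fold lower in CD44hi (adjusted p = 0.0026). Il2ra, the interleukin-2 receptor alpha chain, was at -2.22 and -1.95 against -1.04 and -1.03 (-1.05 ± 0.18, adjusted p = 0.017), and the lineage factor Foxp3 was at -0.28 and -0.15 against 0.32 and 0.80 and was not called (-0.78 ± 0.28, adjusted p = 0.15). The Foxp3 means were -5.06 in naive and 2.69 in Treg, so both populations lay between them. Socs2, a suppressor of cytokine signalling, was higher (1.38 ± 0.14, adjusted p = 0.0033). Ctla4 (-0.17 ± 0.22), Ikzf2 (-0.05 ± 0.40; another probe of the gene differed the other way) and Tnfrsf18 (-0.09 ± 0.23) were not called. Gpr83, Cyp26b1 and Socs2 stayed called with any 1 array left out, but Cyp26b1 was not called with normexp background (adjusted p = 0.056). Il2ra had adjusted p-values of 0.087, 0.12 and 0.095 without CD44hi array 1, CD44lo array 1 and CD44lo array 2.

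Among 31 chemokine receptor and adhesion genes, 11 were higher and 3 lower (45.2% called, against 9.38% of all tested genes). Ccr10, a homing receptor for skin and mucosa, was at -2.23 and -2.30 in CD44hi and not well above background on either CD44lo array. It was an estimated 79.0-fold higher in CD44hi (adjusted p = 0.0007), with probe means of -2.26 in CD44hi and -8.67 in CD44lo. Itga2, an integrin chain for collagen, was an estimated 3.85-fold higher by the same rule (adjusted p = 0.0069, and 0.22 with normexp background). The laminin-binding integrin chain Itga6 was lower together with Ccr7, at 2.61 and 2.45 against 3.82 and 3.77 (-1.27 ± 0.18, adjusted p = 0.0080). Its adjusted p was 0.056, 0.073 and 0.050 without CD44hi array 2, CD44lo array 1 and CD44lo array 2. Itgal and Itgb2, the chains of LFA-1, differed by 0.54 ± 0.17 (adjusted p = 0.11) and 0.20 ± 0.20 (adjusted p = 0.60), and Itgb7, a chain of the gut homing integrin, by 0.07 ± 0.16 (adjusted p = 0.84). The list held 9, 8, 7 and 9 genes called higher without CD44hi array 1, CD44hi array 2, CD44lo array 1 and CD44lo array 2. Costimulatory and inhibitory receptors were called in 5 of 28 cases (17.9%, against 9.38% of all tested genes), all higher. Havcr2, the gene of the inhibitory receptor TIM-3, was at -2.09 and -1.36 against -4.63 and -4.34 (2.76 ± 0.33, adjusted p = 0.0047) and stayed called with any 1 array left out. Cd226, Cd200, Tnfsf8 and Tnfsf11 were higher by 0.99 to 1.47, and Cd28 (0.35 ± 0.19), Ctla4 and Lag3 (0.69 ± 0.29, adjusted p = 0.22) were not called. That list held 1, 1, 1 and 4 called genes without CD44hi array 1, CD44hi array 2, CD44lo array 1 and CD44lo array 2.

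Cytokine receptors were called higher in 8 and lower in 3 of 31 cases (35.5%, against 9.38% of all tested genes). Il9r, the interleukin-9 receptor, was at -2.46 and -2.13 against -5.85 and -5.08 (3.17 ± 0.32, adjusted p = 0.0031). Il2rb, the interleukin-2 and interleukin-15 receptor beta chain, was at 5.86 and 5.74 against 4.65 and 4.91 (1.02 ± 0.22, adjusted p = 0.034), the opposite direction to Il2ra. That call was lost with any 1 of the 4 arrays left out (adjusted p between 0.096 and 0.24). The common gamma chain gene Il2rg differed by -0.12 ± 0.32 (adjusted p = 0.87). The genes called higher were 6, 4, 4 and 5 in the fits without CD44hi array 1, CD44hi array 2, CD44lo array 1 and CD44lo array 2.

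Cytotoxic and killer lectin-like receptor genes separated within their list. Of 24 tested, 13 were higher in CD44hi and 1 lower (58.3% called, against 9.38% of all tested genes). Where only probes well above background on all 4 arrays were tested, 7 were called higher. Klrk1, which encodes the activating receptor NKG2D, was at -2.85 and -2.54 in CD44hi and not well above background on either CD44lo array. It was an estimated 42.8-fold higher (adjusted p = 0.0014). Klrc1, the inhibitory receptor NKG2A, was at -1.97 and -1.15 and was well above background on 1 CD44lo array (4.86 ± 0.40, adjusted p = 0.0018). Klrc3 and Klrc2 were an estimated 17.4-fold and 11.2-fold higher. Nkg7, a granule membrane gene, was at 4.34 and 4.04 against 1.64 and 1.71 (2.52 ± 0.24, adjusted p = 0.0027), and the granzymes Gzma (1.79 ± 0.27) and Gzmb (1.40 ± 0.26) were higher. Lectin-like receptors are near copies of each other, so that a probe can read more than 1 of them.

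Prf1, which encodes the pore-forming protein perforin, went against its neighbours in the list. It stood at -1.86 and -2.36 in CD44hi and at 0.78 and 0.60 in CD44lo, with means of 1.02 in naive and -0.95 in Treg, and was lower in CD44hi (-2.80 ± 0.33, adjusted p = 0.0046). Klrd1, the partner chain of the Klrc receptors, was at 0.47 and -0.02 against 1.48 and 0.86 and was not called (-0.95 ± 0.30, adjusted p = 0.11). Klrk1, Klrc1, Klrc2, Nkg7 and Prf1 stayed called with any 1 array left out, but Klrc2 was not called with normexp background (adjusted p = 0.12). Gzmb was not called in any of these fits (adjusted p between 0.078 and 0.12), and the list held 10, 9, 6 and 8 genes called higher without CD44hi array 1, CD44hi array 2, CD44lo array 1 and CD44lo array 2. CD8 T cells and NK cells share many of these genes. Cd8a was well above background on 1 of the 4 arrays, and Cd8b1 stood at 1.73 and 1.69 in CD44hi against 2.34 and 2.27 in CD44lo and was not called (-0.59 ± 0.22, adjusted p = 0.17). The linear signals of the 15 markers of those cells summed to 8.43 and 7.97 times the 75th percentile in CD44hi and to 11.2 and 9.84 in CD44lo. Leaving out only Cd8b1 gave 5.1 and 4.74 in CD44hi and 6.17 and 5.03 in CD44lo. The order turned, to 3.44 and 3.56 in CD44hi and 1.65 and 1.69 in CD44lo, when Klrd1 and Prf1 were left out too. Cd8b1, Klrd1 and Prf1 all had differences below 0, and they were chosen after the sums were seen. Of the 13 tested, 6 were higher and 1 lower (53.8% called, against 9.38% of all tested genes). Where only probes well above background on all 4 arrays were tested, 3 were higher. Their part in the result was not tested.

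Genes of cell division formed the most uniform group. Mitosis genes encode the cyclins, kinases, motors and checkpoint proteins of chromosome segregation, and all 30 were higher in CD44hi, with a median of 3.70 and a range from Cenpa (1.15 ± 0.22), for which another probe differed the other way, to Ccna2 (4.28 ± 0.55) and Hmmr (4.28 ± 0.54), whose probe was well above background on 1 of the 2 CD44lo arrays. Ccnb2, a cyclin of mitotic entry, was at 3.14 and 3.60 in CD44hi against -0.60 and -0.04 in CD44lo, with means of -1.69 in naive and 2.13 in Treg (3.69 ± 0.34, adjusted p = 0.0026). Cdk1, its kinase, was at -0.23 and 0.24 against -4.05 and -3.35 (3.71 ± 0.37, adjusted p = 0.0030). Mki67, which encodes the proliferation antigen Ki-67, was at 4.13 and 4.46 against 0.41 and 1.27 (3.45 ± 0.41, adjusted p = 0.0047). No member had overlapping arrays, which also held for 68.5% of all tested genes. The median difference was 3.13 on slide 1 and 4.21 on slide 2. Each slide set arrays of different number against each other, so these medians also hold the differences between arrays of the same population. CD44hi array 2 lay above array 1 for all 30 members, by a median of 0.49, and CD44lo array 2 lay above array 1 for 29, by a median of 0.59. Without CD44hi array 1, CD44hi array 2, CD44lo array 1 and CD44lo array 2 the called members were 29, 26, 22 and 28.

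The replication list was less uniform. Of 26 genes, 14 were higher in CD44hi and 0 lower (53.8% called, against 9.38% of all tested genes), with a median of 1.43. The largest differences were those of Orc1, a subunit of the origin recognition complex (3.54 ± 0.40), the licensing factor gene Cdc6 (3.34 ± 0.45), Rrm2 and the cyclin gene Ccne2 (3.19 ± 0.41). Another licensing factor gene, Cdt1, was not called (-0.14 ± 0.16, adjusted p = 0.65). Rrm2, the regulated subunit of ribonucleotide reductase, was at 1.20 and 1.62 against -2.17 and -1.48 (3.23 ± 0.49, adjusted p = 0.011). The replicative helicase subunits Mcm2 (0.23 ± 0.21), Mcm4 (0.39 ± 0.21), Mcm7 (0.57 ± 0.20), Mcm6 (0.79 ± 0.24) and Mcm3 (0.86 ± 0.23) were not called, and Mcm5 was (1.12 ± 0.21, adjusted p = 0.023). Pcna, the sliding clamp, was at 4.71 and 4.97 against 4.24 and 4.22 and was not called (0.61 ± 0.22, adjusted p = 0.16). The called members were 11, 6, 5 and 8 without CD44hi array 1, CD44hi array 2, CD44lo array 1 and CD44lo array 2.

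Many promoters of mitosis genes are known for CCAAT boxes and a cell cycle homology region, and since the 30 genes moved together 4 of their RefSeq promoter stretches (build GRCm38.p6) are shown here. Each runs from 120 bases before the gene's start to 30 bases after it, 5′ to 3′ on the gene's strand, in lower case. Capitals mark CCAAT on either strand, and also the homology region letters TTTGAA as well as their variant TTTAAA. On the other strand CCAAT reads as ATTGG. In these 4 stretches no capitals of different motifs overlapped. Ccnb2 lies at chr9:70421525-70421674, Cdk1 at chr10:69352883-69353032, Cdc20, an activator of the anaphase-promoting complex, at chr4:118437314-118437463 and Ccnb1 at chr13:100786457-100786606, all on the minus strand.
Ccnb2: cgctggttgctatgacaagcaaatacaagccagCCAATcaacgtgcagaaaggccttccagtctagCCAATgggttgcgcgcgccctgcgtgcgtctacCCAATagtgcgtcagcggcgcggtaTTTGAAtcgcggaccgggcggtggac
Cdk1: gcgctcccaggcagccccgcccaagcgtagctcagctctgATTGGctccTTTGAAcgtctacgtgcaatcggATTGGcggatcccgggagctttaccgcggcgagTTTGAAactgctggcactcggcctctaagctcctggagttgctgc
Cdc20: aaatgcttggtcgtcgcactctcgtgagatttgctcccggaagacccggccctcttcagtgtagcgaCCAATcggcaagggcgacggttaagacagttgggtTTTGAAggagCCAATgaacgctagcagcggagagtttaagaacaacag
Ccnb1: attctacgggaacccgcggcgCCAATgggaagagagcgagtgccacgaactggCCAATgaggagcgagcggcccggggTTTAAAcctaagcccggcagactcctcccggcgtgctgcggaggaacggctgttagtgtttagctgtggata
Ccnb2 had 3 matches to CCAAT and 1 to TTTGAA, Cdk1 had 2 and 2, Cdc20 had 2 and 1, and Ccnb1 had 2 to CCAAT and 1 to TTTAAA. The differences of Cdc20 and Ccnb1 were 2.62 ± 0.35 (adjusted p = 0.0068) and 3.73 ± 0.48 (adjusted p = 0.0060).

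In windows from 250 bases before to 50 after the start, 26 of the 30 mitosis genes had an entry, with 27 windows. CCAAT on either strand was present in 22 (81.5%) of them, against 37.4% of all 32851 windows. TTTGAA or TTTAAA was present in 23 (85.2%) against 27.6%, and both kinds in 21 (77.8%) against 10.7%. For the 20 replication genes with an entry (23 windows) the shares were 60.9% for CCAAT and 30.4% for TTTGAA or TTTAAA. The E2F-like letters TTTCCCGC or TTTGGCGC were found in 7 replication windows (30.4%), in 0 mitosis windows and in 1.56% of all windows. The 33 windows of 20 naive and quiescence genes held CCAAT in 30.3% and TTTGAA or TTTAAA in 24.2%. The letters alone are a description of these windows, since binding was not measured.

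**Figure D4:**
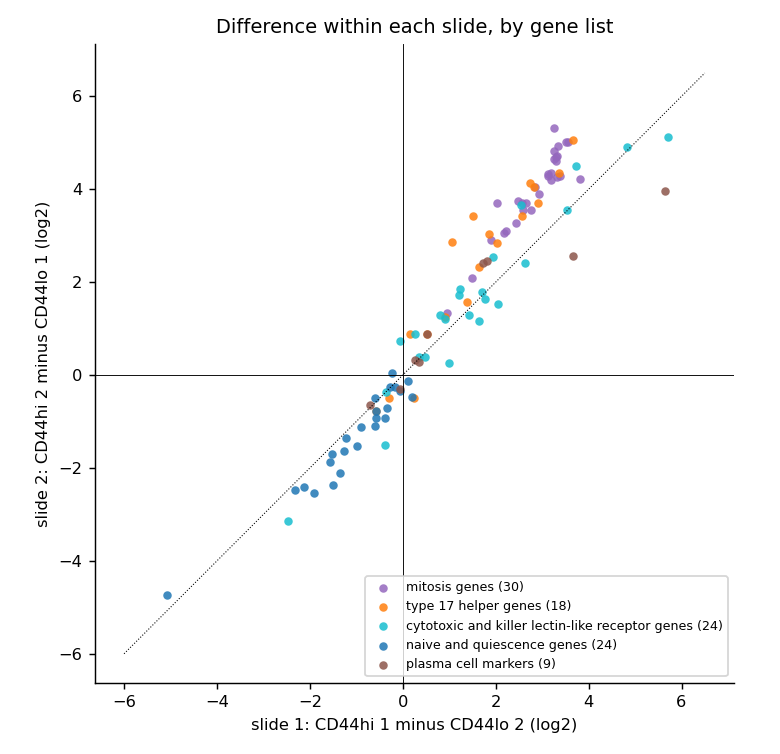
Log2 difference between CD44hi and CD44lo on slide 2 (vertical axis) against slide 1 (horizontal axis) for members of 5 lists, 1 point per gene, with a dotted line of equal differences. Slide 1 is CD44hi array 1 minus CD44lo array 2, and slide 2 is CD44hi array 2 minus CD44lo array 1. The 30 mitosis genes lie above 0 on both slides (medians of 3.13 and 4.21) and naive genes mostly below, type 17 genes lie mainly above the dotted line, and the plasma cell markers farthest to the right lie under it.

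Genes of T cell receptor signalling were called at shares not far above that of all tested genes. Of 25 proximal signalling genes 1 was higher and 2 lower, with a median of -0.05. The higher gene was Themis, a scaffold of receptor signalling (0.87 ± 0.14, adjusted p = 0.015), and the kinase gene Txk was among the lower. Themis was called in none of the fits with 1 array left out, and the genes called lower were 1, 1, 0 and 1. Lck (-0.04 ± 0.15, adjusted p = 0.90), Zap70 (0.29 ± 0.16, adjusted p = 0.34) and Lat (-0.12 ± 0.25, adjusted p = 0.83) were not called. Of 27 early genes induced by the receptor, 3 were higher and 1 lower, a share of 14.8% against the same 9.38%. Il2, the T cell growth factor, was at -1.68 and -1.96 against -4.88 and -4.70 (2.97 ± 0.29, adjusted p = 0.0030), and Ier3, an early response gene, was higher by 2.28 ± 0.28 (adjusted p = 0.0049). Both stayed called with any 1 array left out. Jun was lower (-1.13 ± 0.20, adjusted p = 0.017), a call lost with any 1 array left out (adjusted p between 0.070 and 0.11). Nr4a1 (-0.03 ± 0.28), Egr1 (-0.16 ± 0.23), Fos (0.02 ± 0.63) and Cd69 (-0.54 ± 0.35) were not called.

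Interferon-response genes were divided, with 22.2% called against 9.38% of all tested genes. Oasl1 (-1.90 ± 0.25, adjusted p = 0.0066), Oas2 (-1.78 ± 0.33, adjusted p = 0.021) and Ifit2 (-0.92 ± 0.18, adjusted p = 0.027) were lower in CD44hi, while Mx1 (1.58 ± 0.23, adjusted p = 0.0089), Oas3 (1.25 ± 0.28, adjusted p = 0.040) and Ly6a (1.04 ± 0.23, adjusted p = 0.039) were higher, out of 27 tested with a median of 0.06. Oasl1 was at -2.13 and -2.68 against -0.26 and -0.76, and was called with any 1 array left out, which none of the other 5 was in every fit. Isg15 (0.13 ± 0.17), Ifit1 (-0.12 ± 0.37) and Irf7 (-0.11 ± 0.35) were not called. CD44hi array 1 lay above array 2 for most of the list, with array 2 higher in 2 of 27.

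Survival genes of the Bcl2 family moved in opposite directions. Bcl2 was at 2.61 and 2.28 against 3.94 and 3.45 (-1.25 ± 0.24, adjusted p = 0.024), and its relatives Bcl2l1 (0.88 ± 0.15, adjusted p = 0.016) and Bcl2a1b (1.01 ± 0.21, adjusted p = 0.034) were higher, as was the inflammatory caspase gene Casp1 (1.54 ± 0.24, adjusted p = 0.013). These were the 4 calls of 22 (18.2%, against 9.38% of all tested genes). Bcl2a1b is near identical to its gene copies, so that its probe may read several. None of the 4 calls held in all fits with 1 array left out, where Bcl2 had adjusted p-values of 0.052, 0.14, 0.17 and 0.042 without CD44hi array 1, CD44hi array 2, CD44lo array 1 and CD44lo array 2.

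Among metabolic genes, 1 was higher and 1 lower of 20 glycolysis genes, a share close to the 9.38% called of all tested genes. Of 26 oxidative phosphorylation genes none was called by limma and 0 had an unadjusted p under 0.05, with a median of 0.12. Among the glycolysis genes Hk2, the inducible hexokinase, was higher (1.73 ± 0.39, adjusted p = 0.039, and between 0.070 and 0.23 with 1 array left out) and Pdk1, which holds pyruvate from the mitochondrion, was lower, at 1.06 and 0.72 against 2.58 and 2.41 (-1.60 ± 0.18, adjusted p = 0.0041). Gapdh (0.51 ± 0.14, adjusted p = 0.086), Ldha (0.24 ± 0.16) and Slc2a1 (-0.05 ± 0.28) were not called. Of 21 cholesterol and fatty acid genes Abca1, the cholesterol exporter, was lower, at -1.27 and -1.43 against 0.58 and 0.39 (-1.84 ± 0.18, adjusted p = 0.0027), and the rest were not called. Pdk1 and Abca1 stayed called with any 1 array left out. Of 16 heat shock and stress genes Hspb1 was lower (-1.32 ± 0.23, adjusted p = 0.019, and between 0.026 and 0.081 with 1 array left out) and the others were not called, Hspa8 (-0.12 ± 0.21) and Hsp90aa1 (0.14 ± 0.25) among them.

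The largest falls with a probe well above background on all 4 arrays were those of Tspan9, Igfbp4, Ampd1 and Plaur. Tspan9, a tetraspanin, was at -4.17 and -4.39 in CD44hi against 0.71 and 0.93 in CD44lo, with means of 1.43 in naive and -1.30 in Treg (-5.10 ± 0.21, adjusted p = 0.0007). Ampd1, an AMP deaminase, was at -4.30 and -4.39 against 0.11 and -0.03 (-4.38 ± 0.30, adjusted p = 0.0011). Plaur, the urokinase receptor, was at -5.28 and -5.23 against -0.74 and -1.26 (-4.25 ± 0.24, adjusted p = 0.00075). The next were Drc1 (-3.91 ± 0.37), Sorcs2 (-3.71 ± 0.24), Amz1 (-3.54 ± 0.17), the sodium pump beta chain Atp1b1 (-3.10 ± 0.22), Wfdc2 (-3.07 ± 0.23) and the actin-binding calponin Cnn3 (-3.03 ± 0.22), followed by Ggt5, Amigo2, Dapk1, Prf1 and Tbc1d16. For Ampd1, Amz1, Atp1b1 and Cnn3 the naive mean (1.30, 1.14, 3.49 and 2.55) lay above both populations. For Wfdc2 the order differed, with a naive mean of -4.43 and a Treg mean of -0.28. All 15 except Tbc1d16 (adjusted p between 0.075 and 0.15) stayed called with any 1 array left out. Among genes whose probe was not well above background on either CD44hi array, the largest estimates were 10.9-fold lower for Vwce and 7.35-fold lower for Myo18b.

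The largest rises were of mixed kind. Beside Anxa1, Il17re and immunoglobulin genes they included St6galnac2, a sialyltransferase (5.04 ± 0.53), Plekhh3 (4.46 ± 0.24) and mitotic genes outside the list, namely Ska1 (4.36 ± 0.54), Pimreg (4.33 ± 0.49), Pbk (4.29 ± 0.77) and Nek2 (4.20 ± 0.56). Plekhh3 was at 0.49 and 0.27 in CD44hi against -4.29 and -3.88 in CD44lo. Among genes not well above background on either CD44lo array, Pxdc1 was an estimated 152-fold higher (-1.19 and 0.04 in CD44hi). The estimates were 71.9-fold for Slc22a4, a transporter of ergothioneine, 48.8-fold for Mmp25, a membrane-bound metalloprotease, and 36.6-fold for Cphx1. For Pxdc1 the Treg mean was -2.82, and for Slc22a4 it was -7.87. Each of these stayed called with any 1 array left out except Pbk, which had adjusted p-values of 0.089 without CD44hi array 2 and 0.11 without CD44lo array 1.

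Immunoglobulin genes, which T cells do not rearrange, were also among the largest rises. Jchain, the joining chain of secreted antibodies, was at 3.09 and 1.59 in CD44hi against -2.38 and -2.55 in CD44lo, with means of -2.90 in naive and 2.00 in Treg (4.80 ± 0.59, adjusted p = 0.0054). Iglv1 was at 3.66 and 1.81 against -1.96 and -1.82 (4.63 ± 0.85, adjusted p = 0.021). Igkv4-55 was higher by 4.41 ± 0.59, and Igkv6-14, not well above background on either CD44lo array, was an estimated 59.5-fold higher. Light-chain variable segments, picked by name after their values were seen, were higher in 11 of 14 and lower in 0, with a median of 4.09, and CD44hi array 1 lay above array 2 in 13. Segments are similar in sequence, and a probe may read several. The plasma cell genes Mzb1 (3.12 ± 0.46, adjusted p = 0.0093) and Derl3 (2.14 ± 0.29, adjusted p = 0.0070) were higher too, at -2.07 and -3.20 against -5.77 and -5.74 for Mzb1. Of 9 plasma cell markers tested 4 were higher (44.4%, against 9.38% of all tested genes). The linear signals of the 10 markers summed to 22.8 and 16.2 times the 75th percentile in CD44hi and to 14.3 and 13.7 in CD44lo. Much of this came from Edem1, which was not called (-0.18 ± 0.18, adjusted p = 0.61). Without Edem1, left out after the sums were seen, the sums were 12.7 and 7.03 in CD44hi and 3.04 and 3.22 in CD44lo. Jchain, Derl3 and Igkv4-55 stayed called with any 1 array left out, and Iglv1 had adjusted p-values of 0.067, 0.11 and 0.080 without CD44hi array 1, CD44lo array 1 and CD44lo array 2. Without the same 3 arrays Igkv6-14 had 0.10, 0.15 and 0.11. Mzb1 had 0.059 without CD44lo array 1.

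Of 14 tested B cell markers, 4 were higher in CD44hi and 0 lower (28.6% called, against 9.38% of all tested genes). Cd79a, a chain of the B cell receptor complex, was at -6.39 and -6.15 against -5.85 and -6.24, with 1 CD44hi array well above background (-0.23 ± 0.22, adjusted p = 0.60). The antigen-presenting genes H2-Aa (1.72 ± 0.30, adjusted p = 0.016) and H2-Ab1 (1.86 ± 0.37, adjusted p = 0.028) and the B cell genes Ms4a1 (2.46 ± 0.51, adjusted p = 0.030) and Blnk (2.95 ± 0.40, adjusted p = 0.0070) were higher. H2-Ab1 was at -1.07 and -1.20 against -3.15 and -2.85, with a naive mean of 0.56. Of 19 B cell markers 18 were on the array and 3 were not well above background on any of the 4 arrays. Their signals summed to 49.3 and 57.5 times the 75th percentile in CD44hi and to 58.0 and 79.0 in CD44lo, most of it from the brightest probe of Ighm, the IgM heavy chain. Without Ighm, left out after the sums were seen, the order turned, with sums of 5.28 and 5.87 in CD44hi and 2.47 and 3.56 in CD44lo. Ighm itself was not called (-0.44 ± 0.22, adjusted p = 0.30), and the mean of its probes was higher in CD44hi (1.28, adjusted p = 0.016). Of the 4 higher genes only Blnk stayed called with any 1 array left out, and with normexp background H2-Aa (adjusted p = 0.21) and Ms4a1 (adjusted p = 0.098) lost their calls.

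Of 16 tested myeloid and dendritic cell markers, Lyz2, the lysozyme of phagocytes (2.09 ± 0.38, adjusted p = 0.020), Mpeg1 (1.72 ± 0.32, adjusted p = 0.021) and Tyrobp (1.72 ± 0.41, adjusted p = 0.048) were higher and Fcgr3 was lower (-1.39 ± 0.33, adjusted p = 0.049; another probe differed the other way). Cd14 (-0.03 ± 0.18), Csf1r (0.13 ± 0.27) and Itgam (0.20 ± 0.30) were not called. The share called was 25.0%, against 9.38% of all tested genes. The 19 markers summed to 9.55 and 10.1 in CD44hi and to 6.79 and 7.50 in CD44lo, and none of the 4 calls held in all fits with 1 array left out. Without Cst3, left out after the sums were seen, the myeloid and dendritic cell markers summed to 2.86 and 2.44 in CD44hi and to 1.25 and 1.41 in CD44lo. Of 6 erythroid and platelet markers none was called by limma, and 0 had an unadjusted p under 0.05. These marker genes moved beside the memory, type 17 and division genes, and their part in those differences was not tested.

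**Figure D5:**
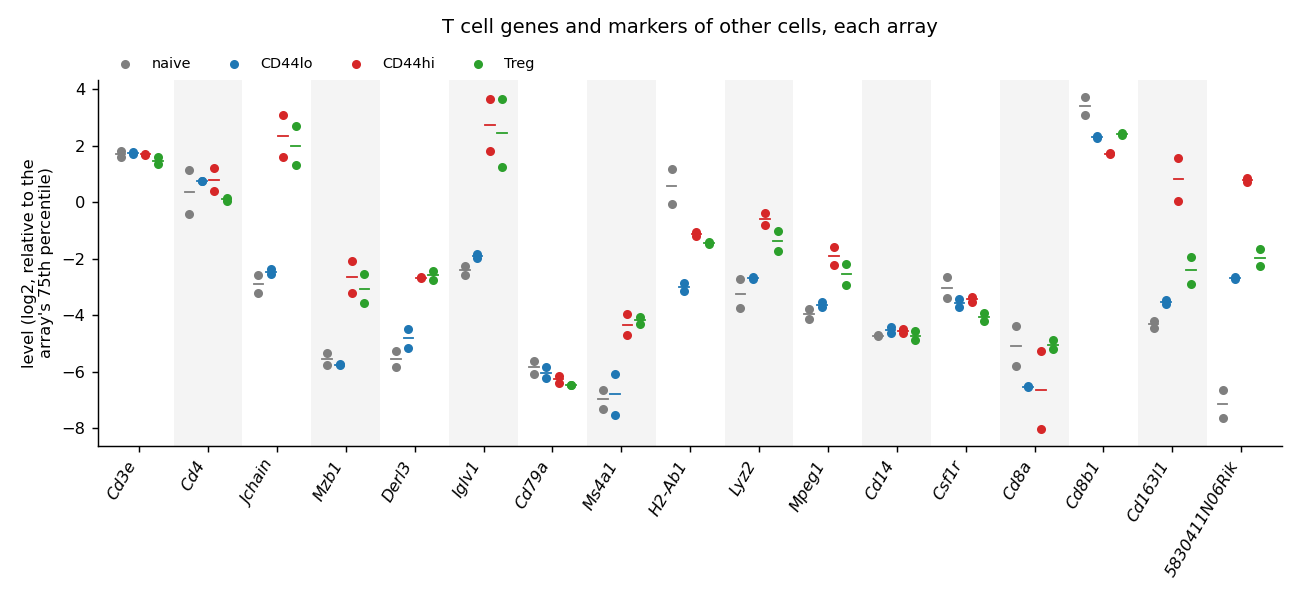
Log2 level relative to the array's 75th percentile (vertical axis) for T cell genes and markers of other cells on all 8 arrays, 1 point per array and a bar at each group's mean of 2 arrays. Jchain, Mzb1, Derl3 and Iglv1 are higher in CD44hi than in CD44lo, and Cd163l1 and 5830411N06Rik are highest in CD44hi.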

How the data were processed

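Gene expression was measured on 8 one-colour Agilent arrays of sorted CD4+ T cells, 2 for each of 4 populations. Per the file headers, the authors deposited Agilent Feature Extraction 9.5.1.1 output, in which the processed signal is a background-corrected intensity on a linear scale. A second deposited table holds log2 values (array medians 6.86 to 6.88), which the authors made with limma per the submitters' processing notes and which ranked probes as the raw median signal did (Spearman correlation of at least 0.9999 on each array). Genome build and sort gates are not given in the sources used here.

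From the deposited intensity, log2 processed signal minus each array's 75th percentile was used, after removal of 1639 control spots. Of 41174 probes, 23082 were named by accession, 6582 by symbol, 3073 by older symbol and 8437 by the file's own name. The brightest probe stood for each of 27666 genes. A gene was tested (18010) if both arrays of at least 1 population had its probe well above background. Group means were fitted to all 8 arrays with limma 3.58.1 (R 4.3.3), with Benjamini-Hochberg adjustment at 0.05. Number and quality of the arrays limit the precision. In simulated data for this comparison with 18010 genes, changes of log2 size 2 were recovered in 79% and of size 1 in 31%. Only 100 genes were changed at each size, fewer than the 1689 called here, so these shares need not carry over.

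The named genes were members of 29 fixed lists and the 15 largest rises and falls among called genes with a current symbol that were well above background on all 4 arrays. The 10 largest fold estimates each way were added for called genes not well above background in the lower population. The members and lists were chosen with earlier results of these data known. Alternatives covered normalization, background, filters, probe choice, blocks, the arrays in the fit and leaving out each array. Promoter windows came from RefSeq (GRCm38.p6). Some genes are not reported here.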

Additional observations from a re-analysis of the deposited data

How the results depend on the processing

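The number of genes called kept within 1.5 times of 1689 with quantile normalization (1872), normexp background (1561), the authors' table (2149), the mean of a gene's probes (1572), only the 4 CD44hi and CD44lo arrays (1623), an intensity trend (1962) and the slide as a block (1408). Quantile normalization gave 1043 higher and 829 lower. Testing only the 16427 genes well above background on all 4 CD44hi and CD44lo arrays gave 1400 called (811 higher, 589 lower). With no filter on dim probes, over 27666 genes, 845 were called (588 higher, 257 lower). Without the naive arrays 2944 were called, 1443 of them lower. Leaving out 1 array gave 516 to 2944 genes called, 380 to 1501 called higher and 136 to 1443 called lower, and 382 were called lower without either Treg array. With the replicate number as a block, as if arrays of the same number were paired, 2271 genes were called, 1659 of them among the 1689. It called 6 follicular helper genes in place of 2 and 19 replication genes in place of 14. Deviations of same-numbered arrays correlated by 0.23 for CD44hi and CD44lo and by 0.06 to 0.33 over all pairs of populations. Those of arrays on the same slide correlated by -0.23 for CD44hi and CD44lo. The labels do not say that a number marks a shared animal or day. A fit of only the 4 arrays with the slide as a block, chosen after seeing the data, called 0 genes with limma (3866 at an unadjusted p under 0.05), with 1 residual degree of freedom. With the mean of a gene's probes, Ighm was at 1.28 (adjusted p = 0.016) and Itga1 at 1.70 (adjusted p = 0.0067), both opposite in sign to the brightest probe. The causes were not tested. Signal over background limits the 275 called genes that were dim in the lower population.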
